A study of Macrobrachium nipponense with 6 samples.

Results

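The microRNA miR-71 was followed in the oriental river prawn, Macrobrachium nipponense, through the 12 probes, of 2546 miRNA probes on the array, whose name after the species prefix is miR-71. Membership follows the probe name alone and uses no measured value, although miR-71 was taken up with earlier results of these data known. The arrays compared prawns held in hypoxic water (2.0 ± 0.1 mg O2 per L, 3 samples) with prawns held in normoxic water (6.5 ± 0.2 mg O2 per L, 3 samples), each for 24 h per the labels. Each sample combined gill, hepatopancreas, muscle and hemocytes, and its total RNA was labelled with Cy3 and read on its own array. The labels do not say whether samples of a group came from separate animals, so the errors below measure the spread between these samples, which may be technical. In combined tissue, fewer cells of a type and less miRNA per cell cannot be told apart.

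MiR-71 is found in many invertebrates and is missing from vertebrates and from Drosophila melanogaster. In the nematode Caenorhabditis elegans it lengthens adult life and adds to resistance to stress, and in the migratory locust it acts on chitin synthase during moulting. Its hairpin can give a mature strand from each side, called 5p and 3p. The seed near the 5′ end of a mature miRNA pairs with the target messenger and largely sets which messengers are bound. In many insects and crustaceans miR-71 lies in a genomic cluster with miR-2 and miR-13 genes.

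The target sequences of the 12 probes are shown because the members differ in few letters and in where they start and end, and those detected on 1 array or on 0 have letters that the members detected on all 6 lack. They were read from the array's own table, 5′ to 3′, with bases 2 to 8, the seed, in capitals. The 6 probes of the 5p side share the run GAAAGACAUGGGUAGUGA of 18 bases, which 0 other probes of the array hold.
tca-miR-71-5p: uGAAAGACauggguagugagau
aae-miR-71-5p: aGAAAGACauggguagugagau
ame-miR-71: uGAAAGACauggguaguga
tca-miR-71-5p_R+1: uGAAAGACauggguagugagaug
tur-miR-71-5p_R+3: uGAAAGACauggguagugagaugaaa
ame-miR-71_L+3R+4: aUCUGAAAgacauggguagugagaug

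The seed GAAAGAC is carried by 5 of these 6. The exception, ame-miR-71_L+3R+4, starts 3 bases earlier than tca-miR-71-5p, so its bases 2 to 8 are UCUGAAA. At the other end ame-miR-71 stops 3 bases before tca-miR-71-5p, while tca-miR-71-5p_R+1 runs on by 1 base and tur-miR-71-5p_R+3 by 4. Counted from 1 at the 5′ end of tca-miR-71-5p, the probe aae-miR-71-5p differs by U1A alone, outside the seed.

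The 6 probes of the 3p side hold 3 seeds. Those named for Aedes aegypti (aae), Tribolium castaneum (tca) and Bombyx mori (bmo) share the run UCUCACUACCUUGUCUUUCA of 20 bases, and those named for the mite Tetranychus urticae (tur) do not.
aae-miR-71-3p: uCUCACUAccuugucuuucaug
tca-miR-71-3p_1ss21TC: uCUCACUAccuugucuuucacg
aae-miR-71-3p_R+2_1ss21TC: uCUCACUAccuugucuuucacgcu
bmo-miR-71-3p: uUCUCACUaccuugucuuucau
tur-miR-71-3p: uCUCACUAcuuugucuuuggcg
tur-miR-71-3p_2ss2CG20GA: uGUCACUAcuuugucuuugacg

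Counted from the 5′ end of aae-miR-71-3p, the tca and the longer aae probe differ by U21C. The probe bmo-miR-71-3p has the same letters and starts 1 base earlier, which moves its seed to UCUCACU. The mite form tur-miR-71-3p differs by C10U, C19G, A20G and U21C, and its variant tur-miR-71-3p_2ss2CG20GA by C2G, C10U, C19G and U21C. No probe outside miR-71 had any of these seeds. The nearest other target was 5 edits away, between ame-miR-71 and cqu-miR-932-3p.

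Of the 12 probes, 10 were detected on all 6 arrays; a probe counted as detected where its signal exceeded the local background by over 3 times the standard deviation among spots without a probe. They were all 6 probes of the 5p side and 4 of the 3p side. The others were the mite 3p forms. Hypoxia arrays 1, 2 and 3 each detected 10 members, against 11, 10 and 10 on normoxia arrays 1, 2 and 3. The single further detection was tur-miR-71-3p on normoxia 1, at 56.3 intensity units above background beside a limit of 35.6. The standard deviation that the scanner table gives for that spot was 33.6% of its median, against 5.76% for the median miRNA probe of the array. On the other arrays tur-miR-71-3p stood 7.10, 13.5 and 45.4 above background in hypoxia and -11.2 and 8.10 in normoxia, each below its limit. Those limits were 73.2, 27.8 and 77.0 on hypoxia 1, 2 and 3, and 67.6 and 94.5 on normoxia 2 and 3. The reading on hypoxia 3 would have passed the limit of normoxia 1. Of all miRNA probes, 17.4%, 35.7% and 16.5% were detected on hypoxia 1, 2 and 3, and 21.4%, 39.3% and 13.4% on normoxia 1, 2 and 3. The variant tur-miR-71-3p_2ss2CG20GA stayed between -2.44 and 34.4 and was detected on 0 arrays. A limit of 3 times a robust spread of the empty spots (scaled median absolute deviation) was 16.2 on hypoxia 2 and 15.8 on hypoxia 3. The variant stood above that limit on these arrays alone, at 26.5 and 34.4. By it tur-miR-71-3p also passed on hypoxia 3, besides normoxia 1, so detection of the mite forms depends on the limit used.

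Across the whole array the comparison called no probe: 0 of 339 tested probes passed an adjusted p of 0.05 (limma, smallest adjusted p = 0.730), and 15 (4.42%) had an unadjusted p under 0.05. Tested probes were those detected on all 3 arrays of a group. Hypoxia 3 stood apart from hypoxia 1 and 2, with Pearson's r over the tested probes of 0.732 and 0.776, while hypoxia 1 and 2 gave 0.893 and pairs of normoxia arrays 0.826 to 0.887. With the normoxia arrays hypoxia 3 gave 0.816 to 0.843, hypoxia 1 0.780 to 0.853 and hypoxia 2 0.819 to 0.884. On hypoxia 3, 126 probes (37.2%) read above every normoxia array and 121 (35.7%) below every one. The same was not counted for hypoxia 1 and 2. Without hypoxia 3, 1 probe, not of miR-71, passed (limma, adjusted p = 0.0141) and 62 had an unadjusted p under 0.05, so the changes of the members and lists below are given with and without it. Of the markers fixed for tissues, muscle was present: dme-miR-1-3p averaged 13.16 ± 0.46 (log2, SD, n = 3) in hypoxia and 12.75 ± 0.80 in normoxia, a change of 0.41, or 0.39 without hypoxia 3. The brightest probe of the other muscle marker, hme-miR-133, averaged 8.65 ± 0.78 in hypoxia and 8.85 ± 0.62 in normoxia. Its change went the other way, at -0.20, or -0.0028 without hypoxia 3. Of 15 muscle probes 5 were tested, 3 with a change above 0, or 4 without hypoxia 3; over all 339 tested probes 41.9% lay above 0, or 35.4% without hypoxia 3. For nervous tissue 12 of 47 probes were tested, all for miR-9, which other tissues also carry, and 10 lay above 0 with and without hypoxia 3. Their median change was 0.36, or 0.50 without hypoxia 3, and in 7 the groups did not overlap, against 10.0% of all tested probes. At an unadjusted p of 0.05, 2 of the 12 were higher and 1 lower, against 1.77% and 2.65% of all, and 0 passed the adjusted test (limma). The brightest miR-9 probe, tca-miR-9a-5p, changed by 0.40, or 0.34 without hypoxia 3. Of 8 miR-124 probes 0 were tested. The part of these tissues in the miR-71 readings was not tested. No defining miRNA was listed for gill, hepatopancreas or hemocytes.

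No miR-71 probe passed the test between hypoxia and normoxia. Of the 10 tested members, 0 passed the adjusted test (0.00% of all tested probes did), 0 had an unadjusted p under 0.05 (4.42% of all did), and in 0 did the 3 arrays of each group lie apart (10.0% of all). None, 0 of 10, moved 2-fold or more, as 8.55% of all tested probes did. Changes above 0 were seen in 5 of 10, against 41.9% of all tested probes; without hypoxia 3 they were seen in 1 of 10, against 35.4% of all. With all 6 arrays these were 5 of the 6 probes of the 5p side, while all 4 of the 3p side lay below 0. Probes of the same side overlap in sequence and may read the same RNA, and all share the same 6 arrays, so these counts are not independent measurements.

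The brightest member, tca-miR-71-5p, carries the GAAAGAC seed of the 5p strand. Its spot stood 5216, 3122 and 8032 intensity units above background on hypoxia 1, 2 and 3, against 3758, 5947 and 4336 on normoxia 1, 2 and 3, before scaling between arrays. After quantile scaling it read 12.19, 12.33 and 12.92 (log2) in hypoxia and 12.53, 12.27 and 12.25 in normoxia. Hypoxia 3 was the highest array, hypoxia 1 the lowest, and the groups overlapped. The means were 12.48 ± 0.39 in hypoxia and 12.35 ± 0.16 in normoxia (SD, n = 3 each), a change of 0.13 (log2, 95% interval -0.56 to 0.82, limma, adjusted p = 0.949). On a linear scale that is 1.10-fold, with an interval from 0.680-fold to 1.77-fold. Without hypoxia 3 the change was -0.10.

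The other 5p probes of full seed gave the following. The probe aae-miR-71-5p read 12.06, 12.29 and 12.80 in hypoxia and 12.07, 12.25 and 12.27 in normoxia (log2 change 0.19, interval -0.48 to 0.86, or -0.01 without hypoxia 3). The shortest probe, ame-miR-71, read 12.13, 12.36 and 12.62 in hypoxia and 12.33, 12.33 and 12.29 in normoxia (0.05, interval -0.52 to 0.62, or -0.08 without hypoxia 3). In both, hypoxia 3 lay above every normoxia array, as for tca-miR-71-5p, and hypoxia 1 lay below every one. The normoxia arrays of ame-miR-71 differed little, with a standard deviation of 0.02, while its hypoxia arrays had 0.24. Its spread within groups was smaller than that of most tested probes: 5.90% of them had a lower one.

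Of the 3 probes that run on at the 3′ end, 2 were lowest on hypoxia 3. The probe tca-miR-71-5p_R+1, 1 base longer than tca-miR-71-5p, read 11.94, 12.25 and 11.66 in hypoxia and 12.06, 12.19 and 12.11 in normoxia (-0.17, interval -0.77 to 0.43, or -0.01 without hypoxia 3 and -0.33 without hypoxia 2). With the shifted seed, ame-miR-71_L+3R+4 read 12.01, 12.15 and 11.65 in hypoxia and 11.88, 12.01 and 11.76 in normoxia (0.05, interval -0.54 to 0.65, or 0.16 without hypoxia 3). Both were lowest on hypoxia 3, below every normoxia array, on the array where tca-miR-71-5p was highest. The longest of the probes with the full seed, tur-miR-71-5p_R+3, read 11.20, 11.66 and 11.78 in hypoxia and 11.78, 11.42 and 11.42 in normoxia (0.0046, interval -0.64 to 0.65, or -0.09 without hypoxia 3), with hypoxia 1 the lowest.

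Set against tca-miR-71-5p on the same array, tca-miR-71-5p_R+1 lay lower by 1.26 (log2) on hypoxia 3, its difference being -1.26 there, -0.25 on hypoxia 1 and -0.08 on hypoxia 2, against -0.47, -0.08 and -0.14 in normoxia. For ame-miR-71_L+3R+4 the difference was -1.28 on hypoxia 3, -0.18 on hypoxia 1 and -0.17 on hypoxia 2, against -0.65, -0.26 and -0.48 in normoxia. Such differences hold the unequal brightness of the probes, so only their shift between arrays can be read. In the authors' deposited value table tca-miR-71-5p_R+1 also had its lowest value on hypoxia 3, at 2937 beside 3721 to 4412 on the other arrays, while tca-miR-71-5p had its highest there, at 6374 beside 4255 to 4906. Probes of other miRNAs were looked at the same way, a comparison chosen after the values were seen. Among 163 pairs of tested probes in which one target runs on past the 3′ end of the other, 60 (36.8%) had their lowest difference on hypoxia 3 and 52 their highest. Among the 7 such pairs of miR-71 the numbers were 3 and 2. What goes with this split was not tested.

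The 3p probes moved together over the arrays, and all had their lowest reading on hypoxia 2. The probe bmo-miR-71-3p read 10.27, 9.81 and 11.03 in hypoxia and 10.69, 10.82 and 10.27 in normoxia (-0.22, interval -1.14 to 0.69). The probe aae-miR-71-3p read 10.05, 9.71 and 10.72 in hypoxia and 10.51, 10.75 and 10.05 in normoxia (-0.27, interval -1.14 to 0.60). The groups overlapped in both. For tca-miR-71-3p_1ss21TC the readings were 10.28, 9.85 and 10.88 in hypoxia and 10.71, 10.89 and 10.19 in normoxia (-0.26, interval -1.13 to 0.61). The widest gap between groups among the 10 members was that of aae-miR-71-3p_R+2_1ss21TC, at 10.25, 9.26 and 10.43 in hypoxia and 10.62, 10.85 and 10.34 in normoxia (-0.62, interval -1.54 to 0.30, limma, adjusted p = 0.870). It was also the only one of the 3p probes to read below bmo-miR-71-3p by more on hypoxia 2 and 3 (-0.56 and -0.60) than on any other array (-0.06 to 0.07).

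The 3p changes moved with the arrays kept. Without hypoxia 3 they ranged from -0.81 to -0.51, and without hypoxia 2 from -0.26 to 0.06, with bmo-miR-71-3p at 0.06. Over the 6 arrays the pairs of 3p probes had correlations of 0.835 to 0.995 and the pairs of 5p probes -0.752 to 0.916. Pairs with 1 probe of each side had -0.653 to 0.639. All these values share the same 6 arrays and their scaling and are given as a description.

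The mean of the 6 probes of the 5p side exceeded that of the 4 of the 3p side by 1.71, 2.51 and 1.47 (log2) on hypoxia 1, 2 and 3, against 1.47, 1.25 and 1.81 on normoxia 1, 2 and 3. Hypoxia 2 had the largest difference, and the groups overlapped. Means were 1.90 ± 0.55 in hypoxia and 1.51 ± 0.28 in normoxia (SD, n = 3 each), a difference of 0.39, smaller than the spread in hypoxia. It was 0.07 without hypoxia 2 and 0.57 without hypoxia 3. The authors' deposited value table gave the same lowest array for the 3p side: bmo-miR-71-3p had 801 on hypoxia 2 beside 1075 to 1812 on the other arrays. Because a probe's brightness depends on its sequence, these differences do not give the ratio of the strands in the prawn.

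MiR-2 and miR-13 share a seed family that limits apoptosis genes in flies and sit beside miR-71 in many arthropod genomes. Of 69 such probes 36 were tested, 33 of miR-2 and 3 of miR-13, and 0 passed in either direction (limma, adjusted p). At an unadjusted p of 0.05 (limma), 1 was higher and 0 lower, against 1.77% and 2.65% of all tested probes. Without hypoxia 3, 6 were higher and 0 lower, where 33 and 29 of all 339 were. Above 0 lay 16 of the 36 and below 0 lay 20, where 41.9% of all tested probes lay above 0. The median change of the list was -0.09, the same as the median over all 339 tested probes, -0.09. Without hypoxia 3, 19 of the 36 lay above 0 and 17 below, where 35.4% of all lay above 0. The median of the list was then 0.19, against -0.16 over all tested probes. Several miR-2 targets differ only in length, so these counts are not independent measurements. The brightest miR-2 probe, bmo-mir-2a-1-p3_1ss1TG, read 11.88, 11.49 and 11.91 in hypoxia and 11.75, 11.91 and 11.96 in normoxia (-0.11, interval -0.69 to 0.46, or -0.16 without hypoxia 3). The brightest miR-13 probe, api-miR-13a, read 11.52, 11.21 and 9.87 in hypoxia and 10.56, 10.79 and 10.79 in normoxia (0.15, interval -0.97 to 1.28, or 0.63 without hypoxia 3). In api-miR-13a hypoxia 3 was the lowest array, where tca-miR-71-5p was highest.

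Other miRNAs tied to lifespan in Caenorhabditis elegans were lin-4, whose relatives elsewhere are called miR-125, miR-34, miR-238, miR-239 and miR-246. Only miR-34 and miR-125 had probes on the array, 19 in all, of which 10 were tested and 0 passed (limma, adjusted p). The tested probes were 8 of miR-34 and 2 of miR-125. Several miR-34 targets differ only in length, so the counts and median of this list mostly describe miR-34 and are not independent measurements. At an unadjusted p of 0.05 (limma), 0 were higher and 2 lower, against 1.77% and 2.65% of all tested probes. Without hypoxia 3, 1 was higher and 7 lower, where 33 and 29 of all 339 tested probes were. Above 0 lay 2 and below 0 lay 8, with and without hypoxia 3, where 41.9% and 35.4% of all tested probes lay above 0. The median change was -0.32, against -0.09 over all tested probes, and without hypoxia 3 it was -0.66, against -0.16. The brightest miR-34 probe, tur-miR-34-5p, read 9.56, 9.73 and 10.92 in hypoxia and 10.39, 10.51 and 10.25 in normoxia (-0.31, interval -1.30 to 0.68, or -0.67 without hypoxia 3). For ame-miR-125 the readings were 12.27, 11.58 and 10.77 in hypoxia and 11.65, 10.60 and 8.58 in normoxia (1.26, interval -0.77 to 3.30, or 1.55 without hypoxia 3), so the normoxia arrays alone spanned more than the change.

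The patterns most like that of tca-miR-71-5p, by Pearson's r over the 6 arrays among 329 tested probes outside miR-71, were those of isc-miR-87_R+1 (0.993), isc-miR-315_R+1 (0.985), api-miR-100 (0.982), api-miR-315_R+3_1ss20AG (0.981) and hme-miR-190 (0.969). The median r was 0.14, and 11 probes exceeded 0.9. All 5 named probes were highest on hypoxia 3. For isc-miR-87_R+1 the readings were 11.62, 11.81 and 12.70 in hypoxia and 12.15, 11.83 and 11.81 in normoxia. The likeness is a description over 6 arrays that share their scaling.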

How the data were processed

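Single-colour LC Sciences arrays were used, 1 array for each of 6 samples, grouped by the sample titles. The deposited scanner tables hold a median intensity and a standard deviation per spot on a linear scale, with no background correction, per the file headers and the empty spots. The authors' deposited value table holds intensity values whose background and scaling steps are not given in the sources used here, and it served as an alternative. Its scale was read as linear, because bright probes followed the scanner values (log2 r of 0.993 to 0.999) and were of like size. The median ratio of its values to the scanner signal above background was 0.693 to 1.48 over the arrays. Medians of its columns were 5.89, 0.0400 and 2.95 on hypoxia 1 to 3 and 4.37, 4.11 and 6.44 on normoxia 1 to 3.

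Background was taken from the 20 nearest empty spots, corrected by normexp over all spots (limma 3.58.1, R 4.3.3, offset 50, which shrinks changes of dim probes), and miRNA probes were quantile normalised and put on a log2 scale. Each probe had 1 spot. Limma (lmFit, eBayes, hypoxia minus normoxia) was fitted over the 339 tested probes with Benjamini-Hochberg adjustment. The number of arrays limits the precision. Members, lists and the named probes (all members, the brightest tested probe of each listed stem, the 5 probes most like the brightest member) were chosen with earlier results of these data known. Equal replicate numbers gave no sign of pairs (r of deviations -0.25, -0.27 and -0.06, against -0.0025 to 0.24 for unequal numbers). Deviations over the 3 arrays of a group sum to 0, so this check cannot exclude pairs. Alternatives covered background, scaling, filter, detection limit, spread model, array weights, a replicate block and single arrays left out.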

Additional observations from a re-analysis of the deposited data

Results flagged for a closer look

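Calibration probes, which lie outside the miRNA comparison, gave a higher signal for those named 3M relative to those named 3P on hypoxia 1 (10.8%) and hypoxia 2 (7.14%) than on any normoxia array, where it was at most 3.73%; hypoxia 3 had 1.22%. The files do not state what these names stand for. Its part in the miR-71 readings was not tested.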

How the results depend on the processing

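The alternatives for the arm difference and the count of members above 0, and the list values without hypoxia 3, were chosen after seeing the data. Of 210 changes of single miR-71 probes under 21 alternatives each, 194 kept their sign, 16 turned it and 0 passed the adjusted threshold (limma). Turned values were tur-miR-71-5p_R+3 at -0.0020 with 1 background per array and -0.0017 with no correction, tca-miR-71-5p_R+1 at 0.091 with the 75th percentile of all probes and 0.0031 with array weights, ame-miR-71 at -0.0044 with array weights, and ame-miR-71_L+3R+4 at -0.035 with no scaling. That percentile moved the median of all tested probes to 0.22, and relative to it tca-miR-71-5p_R+1 lay at -0.13. With single arrays left out, the brightest probe ranged from -0.10 to 0.28, tca-miR-71-5p_R+1 from -0.33 to -0.013, aae-miR-71-5p from -0.012 to 0.35, ame-miR-71 from -0.075 to 0.15, tur-miR-71-5p_R+3 from -0.095 to 0.21, ame-miR-71_L+3R+4 from -0.055 to 0.16 and bmo-miR-71-3p from -0.53 to 0.059. Members above 0 numbered 1 to 5 with single arrays left out, with 1 without hypoxia 3 and 3 without normoxia 3. They numbered 6 with the 75th percentile of all probes. The count of changed probes was 0 to 1, with 1, not a miR-71 probe, without hypoxia 3, and 0 under every other alternative. Of 339 tested probes, 15 had an unadjusted p under 0.05 in the reported fit (limma). The number was 62 without hypoxia 3, 72 with array weights, 6 without normoxia 2 and 7 with the 75th percentile of all probes. It was 5 both with no scaling and with the 75th percentile of detected probes. With no filter it was 74 of 2546 probes. The median of the other lifespan miRNAs ranged from -0.66 to -0.16 with single arrays left out, and was -0.047 with the 75th percentile of all probes, -0.13 with no filter and -0.65 with array weights, where the weight of hypoxia 3 was 0.168. That of miR-2 and miR-13 ranged from -0.20 without hypoxia 1 to 0.19 without hypoxia 3, and was 0.17 with that percentile and 0.0021 with no filter. With array weights aae-miR-71-3p_R+2_1ss21TC had an unadjusted p of 0.0182 and an adjusted p of 0.158 (limma), the only member under 0.05 in any alternative, and the arm difference was 0.76. The replicate block left 0 changed probes and the change of the brightest probe at 0.13 (adjusted p = 0.987), with no call changed. The 10 members detected on all arrays were 10 at limits of 2 and 5 standard deviations, with 1 background per array and by an authors' value above 0. The causes were not tested.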
